A study of Mus musculus with 8 samples.

Results

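Macrophages of mouse bone marrow that carried the green fluorescence of myeloma cells were compared, gene by gene, with macrophages from the marrow of naive mice. A gene was described when it reached at least 5 CPM (CPM is the count scaled by the total count of its library) in 2 of the 4 libraries of these groups. This held for 9998 of the 47643 genes of the count table, and all 9998 were among the 15522 genes tested. Of them, 9772 were protein coding, and together they held 99.2% to 99.4% of the counts of a library. The limit was met in all 4 libraries by 8854 genes. It was met in both libraries of 1 group and in neither of the other by 114 genes on the tumour side and 432 on the naive side, and these genes had to differ by the way they were chosen. Alyref2 and Zfp874b lay just inside the limit, with a second highest value of 5.01 CPM each, and Rnf150 and Mapkbp1 lay just outside, each at 4.99.

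The study asked how macrophages change next to myeloma, and its title names interleukin 6 and tumour necrosis factor. Tumour-associated macrophages (TAM) came from wild-type B6 mice with no further treatment, whose tibia had received Vk*MYC myeloma, a transplantable plasma cell tumour of mice that had been purified by CD138 and made green fluorescent protein (GFP). Sorting from marrow took cells high in F4/80 and low in CD11b, of which the GFP+ ones were taken as TAM in contact with myeloma (n = 2 mice). The reference group was bone marrow macrophages of naive wild-type B6 mice without tumour (n = 2), and GFP- TAM not in contact (n = 2) entered the fit without being compared here. Contact rests on GFP in the sort alone, and the hosts kept their own lymphoid and myeloid cells. No age, sex, gate of the naive macrophages or number of animals per naive sample was found in the labels. The naive replicates may thus be partly technical. A p-value speaks only to the spread of the libraries in its fit, TAM not in contact included where 6 libraries were fitted.

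Resident macrophages of marrow, spleen and liver take up ageing red cells and dying cells, recycle the iron of heme, and carry a shared set of receptors for these tasks. They also make growth factors and hold developing cells in contact through adhesion molecules. Monocytes are made in the same marrow, and in inflamed or tumour-bearing tissue they can give rise to macrophages that express other receptors and cytokines.

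The 4 libraries held 28887725 to 46873056 counts. Where a gene has no count, the upper limit is set at 3 counts, which is 0.0674 and 0.0712 CPM in the libraries of TAM in contact. Values are given in CPM for replicate 1 and then replicate 2 of a group, and the numbers pair no tumour library with a naive one. By the labels the libraries of TAM in contact and not in contact with the same number come from the same mouse. The replicates differed more in TAM in contact, where 9.7% of the described genes differed at least 2-fold, than in naive macrophages, where 4.1% did. TAM in contact replicate 2 had Y-linked transcripts at high levels (Ddx3y at 88.4 CPM) and no count of Xist. In the other 3 libraries and the 2 of TAM not in contact Ddx3y lay at 0 to 0.258 CPM and Xist at 17.5 to 53.8 CPM. The libraries labelled mouse 2 of the GFP+ and GFP- TAM thus have opposite patterns, which 1 mouse would not give, so that label is in doubt. TAM in contact also mixes both patterns, while both naive libraries hold Xist and almost no Ddx3y. The calls below were the same 34 genes when Y-linked genes and Xist were removed, an alternative chosen after the data were seen. That step drops only those genes and keeps TAM in contact replicate 2 in the fit. It cannot show whether the other genes depend on that library.

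The genes behind the sort did not pass the test. Adgre1, which encodes F4/80, had 519 and 550 CPM in the tumour group against 1134 and 587 in the naive group. Itgam, which encodes CD11b, stood at 215 and 232 against 245 and 331, and the macrophage gene Cd68 at 579 and 780 against 1087 and 531. For Adgre1 the tumour libraries were both below the naive ones, and for Cd68 the groups overlapped. The leukocyte gene Ptprc stood at 2102 and 2045 CPM against 986 and 1072, with a log2 fold change of 1.17 ± 0.50 (SE, adjusted p = 0.357). Sdc1, the gene of the plasma cell marker CD138, was at 6 and 3.73 CPM in the GFP+ cells and 9.49 and 10.8 in naive macrophages. Clec4f, a gene of liver macrophages, had a count of 0 in all 4 libraries.

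The genes with the highest counts were shared in part. In TAM in contact they were Ngp (21453 and 11227 CPM), Lyz2, Ltf, Cd74 and H2-D1, and in naive macrophages Ltf (17080 and 27030 CPM), Ngp, Lyz2, Ctsd and Ctsb. Ngp and Ltf encode granule proteins of neutrophils, Lyz2 lysozyme, Cd74 the invariant chain of MHC class II, and Ctsd and Ctsb lysosomal proteases. None of these genes passed the test.

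Over the 9998 genes the median log2 fold change of TAM in contact over naive macrophages was 0.08, and 0.004 over all genes tested, with 246 genes at 2 or more and 356 at -2 or less. The median log2 ratio of the group means of CPM, scaled by the library total in place of edgeR's TMM factors, was -0.075 over the 9998 genes. edgeR's quasi-likelihood test on the 6 macrophage libraries called 34 genes at an adjusted p under 0.05, which is 0.34% of the genes described and 0.219% of those tested. Their adjusted p lay between 0.0425 and 0.0493. Of the 34, 29 were lower in TAM in contact (0.29% of the genes described, 0.187% of those tested) and 5 were higher (0.05% and 0.0322%). Of the 29, 18 met the CPM limit through the naive group alone, so their direction followed from how they were described, as did that of 1 of the 5 (Arhgef37). At an unadjusted p under 0.05 there were 1697 genes, or 17.0%, of which 917 (9.17%) were higher and 780 (7.8%) lower, so more of these were higher than lower, unlike the adjusted calls. Leaving out any 1 of the 4 libraries left 0 calls, with 688 to 1334 of the described genes still at an unadjusted p under 0.05.

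A second fit took the 4 libraries alone, without TAM not in contact, whose spread enters the test above. In TAM not in contact immunoglobulin genes took 0.398% of the counts of replicate 1 and 9.13% of those of replicate 2. The 4-library fit called 516 described genes (5.16%), 201 higher (2.01%) and 315 lower (3.15%), with all 34 among them. DESeq2 also called each of the 34, and limma-voom called 0, with 1739 of the described genes at an unadjusted p under 0.05. The 2 groups did not overlap in 6133 described genes (61.3%), 2644 higher (26.4%) and 3489 lower (34.9%) by CPM of the library total, and in 6161 with 3606 higher and 2555 lower after TMM scaling, so the direction of small differences depends on the scaling. Below, "rose" and "fell" are used only for the 34. For other genes given with values that passed in the 4-library fit, the adjusted p of that fit is printed too.

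**Figure D1:**
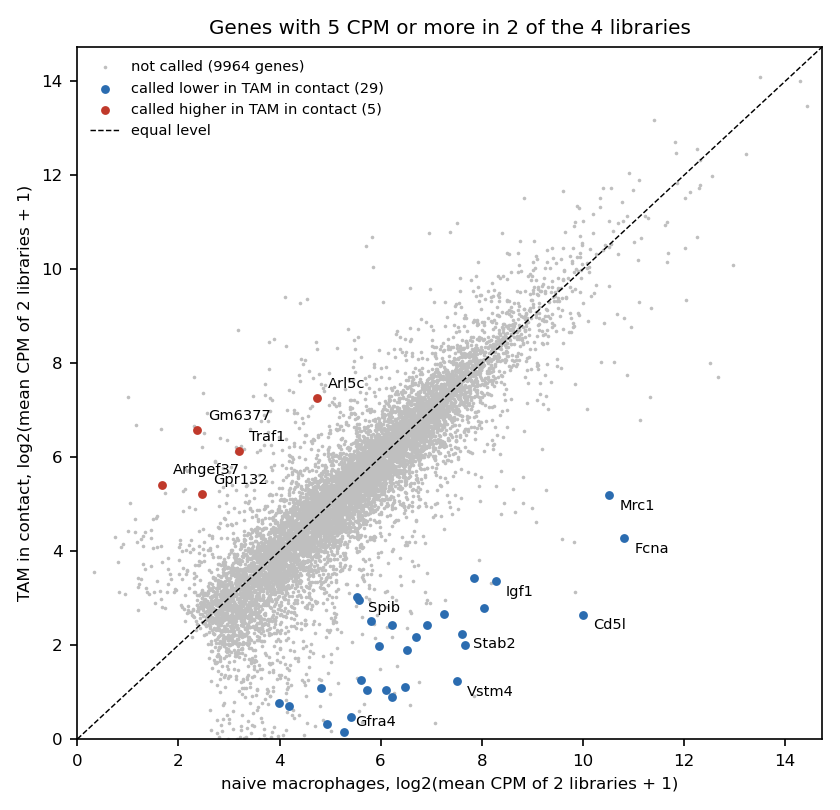
Mean level of each described gene in naive macrophages (x axis) and TAM in contact (y axis), as log2 of the mean CPM of 2 libraries plus 1. Blue points are the 29 genes called lower and red points the 5 called higher, and the dashed line marks equal levels. The genes called lower lie far below the line, and Mrc1, Fcna and Cd5l are the ones among them with the highest naive levels.

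Genes of the resident macrophage programme were prominent among those that fell. Of 28 genes listed for resident macrophage identity 27 were described, 6 fell, and 13 of the 27 were called lower in the 4-library fit. Over all described genes 0.29% fell and 0.05% rose, and in the 4-library fit 3.15% were lower and 2.01% higher. Counts of this list and of those below stand beside these shares, and the lists were written with earlier results of these data known. The median of the 27 was a log2 fold change of -2.90, and their summed level with Clec4f was 8368 and 7052 CPM in TAM in contact against 49166 and 23247 in naive macrophages. In bulk RNA, fewer cells of a type and less RNA per cell cannot be told apart. Naive replicate 1 exceeded replicate 2 at least 2-fold in 15 of the 27 genes, against 299 of all 9998 described genes. Without naive replicate 1 the median was -2.17. In TAM in contact replicate 1 exceeded replicate 2 at least 2-fold in 12 of the 27, against 657 of all 9998. Without TAM in contact replicate 1 the median was -4.22.

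Cd5l encodes a secreted scavenger protein of tissue macrophages (GRCm38 chromosome 3, 87357881 to 87371073, plus strand). Its level was 6.70 and 3.82 CPM in the tumour group against 1435 and 614 in the naive group, so the libraries lay far apart (log2 fold change -7.46 ± 0.65 SE, adjusted p = 0.0425). It fell most among the genes of this list, and the 250 bases before its start site are shown with those of Gfra4 and Traf1, which had the largest fall of the 34 genes and which rose in the pathway of the study's title. The sequences are from RefSeq (GRCm38.p6), read 5′ to 3′ on the strand of the gene, and capitals mark a match to a motif searched. They cover chr3:87357631-87357880 (plus strand) for Cd5l, chr2:131043089-131043338 (minus strand) for Gfra4 and chr2:34961773-34962022 (minus strand) for Traf1.
Cd5l: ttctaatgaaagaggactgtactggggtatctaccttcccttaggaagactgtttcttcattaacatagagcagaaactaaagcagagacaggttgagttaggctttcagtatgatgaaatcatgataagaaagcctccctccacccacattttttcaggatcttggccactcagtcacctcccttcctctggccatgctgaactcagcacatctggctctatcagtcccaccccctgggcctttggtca
Gfra4: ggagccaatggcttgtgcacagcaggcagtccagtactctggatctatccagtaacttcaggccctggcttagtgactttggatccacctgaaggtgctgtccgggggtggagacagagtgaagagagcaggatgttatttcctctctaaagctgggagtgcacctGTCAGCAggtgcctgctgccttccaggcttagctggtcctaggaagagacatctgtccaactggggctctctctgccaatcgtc
Traf1: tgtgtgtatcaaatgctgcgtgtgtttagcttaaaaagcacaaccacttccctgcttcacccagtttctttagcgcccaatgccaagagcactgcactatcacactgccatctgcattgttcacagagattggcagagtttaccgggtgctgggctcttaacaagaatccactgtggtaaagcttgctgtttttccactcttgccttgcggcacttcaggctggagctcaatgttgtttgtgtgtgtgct
Motif letters were searched on both strands in the promoters of the called genes that the RefSeq table holds, 26 promoters of genes that fell and 3 of genes that rose, alternative starts of a gene included. The MAF half-site TGCTGAC, shown in capitals in Gfra4 on the opposite strand, was in 2 of the 26 (Fcna and Gfra4, 7.69%) and in 3.81% of all 32851 promoters. TGANTCA of AP-1 was also in 2 (another start of Gfra4, and Igf1) against 6.75% of all, and TTGCNNAA of C/EBP in 1 (Spib, 3.85%) against 9.56%. GAGGAAGT of PU.1 and the consensus of NF-kB were in 0 of the 26 (2.44% and 0.36% of all), and none of the 5 motifs was in the 3 promoters of genes that rose.

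The other members of the list that fell were receptors, a lectin, a growth factor and a membrane linker. Fcna, the complement lectin ficolin A, stood at 17.3 and 19.3 CPM against 2426 and 1176 (-6.46 ± 0.58, adjusted p = 0.0425). Stab2, a receptor for hyaluronan and dying cells, stood at 4.38 and 3.11 CPM against 264 and 126 (-5.55 ± 0.53, adjusted p = 0.0425). Mrc1, the mannose receptor CD206, stood at 46.7 and 24.5 CPM against 1865 and 1080 (-5.22 ± 0.54, adjusted p = 0.0442). In each of the 3 both tumour libraries lay far below both naive ones, and Stab2 met the CPM limit through the naive group alone. Igf1, the insulin-like growth factor, stood at 11.3 and 7.26 CPM against 408 and 208 (-4.91 ± 0.48, adjusted p = 0.0425). Epb41l3, which ties membrane proteins to the cytoskeleton, stood at 11.1 and 8.45 CPM against 302 and 157 (-4.40 ± 0.43, adjusted p = 0.0425). Other genes of the list were not called in the 6-library fit. Timd4, a receptor for phosphatidylserine on dying cells, stood at 2.02 and 0.617 CPM against 141 and 72.5 (-6.19 ± 0.74, adjusted p = 0.0543, 0.0224 in the 4-library fit). Vcam1, an adhesion molecule of marrow macrophages, stood at 260 and 153 CPM against 8636 and 4335 (-4.83 ± 0.63, adjusted p = 0.0702, 0.0231 in the 4-library fit). Axl, a receptor kinase of the clearance of dying cells, stood at 1125 and 164 CPM against 5772 and 2680, with a wide gap within TAM in contact (-2.58 ± 0.97, adjusted p = 0.319).

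Receptors of the GDNF family, a group of growth factors of neurons and kidney, held the largest fall among the 34 genes. Gfra4, a co-receptor of the family (chromosome 2, 131039632 to 131043088, minus strand), had 0.112 and 0.0949 CPM in the tumour group against 43.8 and 31.9 in the naive group (-8.31 ± 0.66, adjusted p = 0.0425). The tumour values lie close to the level of 3 counts. Gfra2, its relative (chromosome 14, 70890120 to 70979838, plus strand), had 1.30 and 0.997 CPM against 121 and 56.7 (-6.12 ± 0.53, adjusted p = 0.0425). Of 11 ligands and receptors listed, only these 2 and Ncam1 were described. Gfra4 and Gfra2 met the CPM limit through the naive group alone, so their direction followed from how they were described. Ret, the kinase through which the family signals, was under the CPM limit, and the third receptor described, Ncam1, stood at 53.4 and 22.8 CPM against 46.7 and 73.5, with overlapping groups.

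Among growth factors 11 of 28 listed were described, 2 fell, and 5 were lower in the 4-library fit (median -1.72). Besides Igf1, the one that fell was Pdgfc, a platelet-derived growth factor, at 3.44 and 3.63 CPM against 142 and 63.8 (-4.71 ± 0.46, adjusted p = 0.0425). Fgf1, a fibroblast growth factor, stood at 1.66 and 0.261 CPM against 99.9 and 50.8 (-6.15 ± 0.91, adjusted p = 0.0823, 0.0313 in the 4-library fit). Vegfb, of the endothelial growth factor family, stood at 6.52 and 3.63 CPM against 42.0 and 24.8 (-2.57 ± 0.41, adjusted p = 0.0927, 0.0397 in the 4-library fit).

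Enzyme and transport genes were among the other falls. Gpd1, the glycerol-phosphate dehydrogenase of the cytosol, stood at 2.74 and 3.32 CPM against 270 and 136 (-5.91 ± 0.66, adjusted p = 0.0493). The sialyltransferase gene St6galnac2 stood at 0.450 and 0.332 CPM against 56.2 and 27.3 (-6.57 ± 0.53, adjusted p = 0.0425). The hydrolase gene Cmbl stood at 1.03 and 1.07 CPM against 69.9 and 33.9 (-5.47 ± 0.59, adjusted p = 0.0493). In these enzyme genes the 2 libraries of TAM in contact agree closely and lie below 4 CPM. All of them met the CPM limit through the naive group alone, so a level under 5 CPM in TAM in contact followed from how they were described. Potassium channel genes fell as well, with Kcna2 at 0.922 and 1.19 CPM against 94.7 and 41.1 (-5.85 ± 0.56) and Kcnk13 at 5.33 and 4.03 against 70.4 and 39.7 (-3.40 ± 0.38). The solute carrier genes Slc22a23 (-4.97 ± 0.48) and Slc1a3, a glutamate transporter (-4.68 ± 0.53), fell too. Slc1a3 stood at 7.24 and 3.35 CPM against 198 and 103.

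Klf15, a zinc finger transcription factor, stood at 0.180 and 0.309 CPM against 37.7 and 22 (-6.76 ± 0.67, adjusted p = 0.0425). Spib, a relative of the macrophage factor PU.1 that is used in B cells and plasmacytoid dendritic cells, had the smallest fall of the 29, at 8.27 and 5.96 CPM against 47 and 44 (-2.52 ± 0.28, adjusted p = 0.0493). Epor, the receptor of erythropoietin, stood at 2.94 and 2.99 CPM against 84.6 and 37.7 (-4.21 ± 0.46, adjusted p = 0.0493). Col14a1, a collagen of fibril surfaces, stood at 6.05 and 5.81 CPM against 370 and 154 (-5.31 ± 0.57, adjusted p = 0.0493). The lysosomal protease gene Ctsf stood at 4.83 and 3.96 CPM against 94.6 and 52.7 (-3.91 ± 0.37, adjusted p = 0.0425). The immunoglobulin-domain gene Vstm4 (-6.90 ± 0.68), the calcium-binding protein gene Chp2 (-6.28 ± 0.61), the LIM-domain gene Crip2 (-4.90 ± 0.48), the progestin receptor family gene Paqr9 (-4.60 ± 0.45), the synapsin gene Syn1 (-4.22 ± 0.47), Fam213a (-2.63 ± 0.29) and the unnamed gene models Gm13710 (-4.62 ± 0.50) and Gm29291 (-4.43 ± 0.50) complete the 29. In 28 of the 29 both libraries of TAM not in contact lay above both of TAM in contact, as in 20.9% of all described genes, and in 16 both lay below both naive libraries, as in 31.5%. The 29 were chosen for low values in TAM in contact, so these counts are a description with no test.

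The 5 genes that rose are an adaptor, a receptor, a small GTPase, an exchange factor and an unnamed gene. Traf1, whose protein binds the tails of TNF-family receptors and which NF-kB switches on (chromosome 2, 34941750 to 34961772, minus strand), had 88.0 and 49.6 CPM against 8.94 and 7.34 (3.22 ± 0.35, adjusted p = 0.0493). Gpr132, a G protein-coupled receptor that responds to acid and lipids, stood at 35.6 and 36.5 CPM against 3.69 and 5.43 (3.14 ± 0.31, adjusted p = 0.0425). Arl5c, a small GTPase of the ARF family, stood at 155 and 148 CPM against 24.2 and 27.5 (2.71 ± 0.28, adjusted p = 0.0439). For these 3 both tumour libraries lay well above both naive ones, and for Traf1 they differed most from each other. Arhgef37, of the family of guanine nucleotide exchange factors, stood at 36.3 and 47 CPM against 2.01 and 2.39 (4.41 ± 0.35, adjusted p = 0.0425). Gm6377 stood at 106 and 83.0 CPM against 5.59 and 2.77 (4.64 ± 0.47, adjusted p = 0.0425), and its exons overlap those of Sh3bgrl. Genes with the next smallest p among higher genes were Nupr1, a stress-induced chromatin protein, at 45.0 and 102 CPM against 3.90 and 5.09 (4.21 ± 0.49, adjusted p = 0.0529, 0.0238 in the 4-library fit), Plxdc1, Ptpro and Gch1 (adjusted p = 0.0224, 0.0256 and 0.0199 in the 4-library fit). Of the 34 called genes 16 share their locus with another annotated gene and 8 share exon bases, Fcna, Gfra4 and Stab2 among them, and a kit that does not mark strand cannot separate reads of such pairs.

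**Figure D2:**
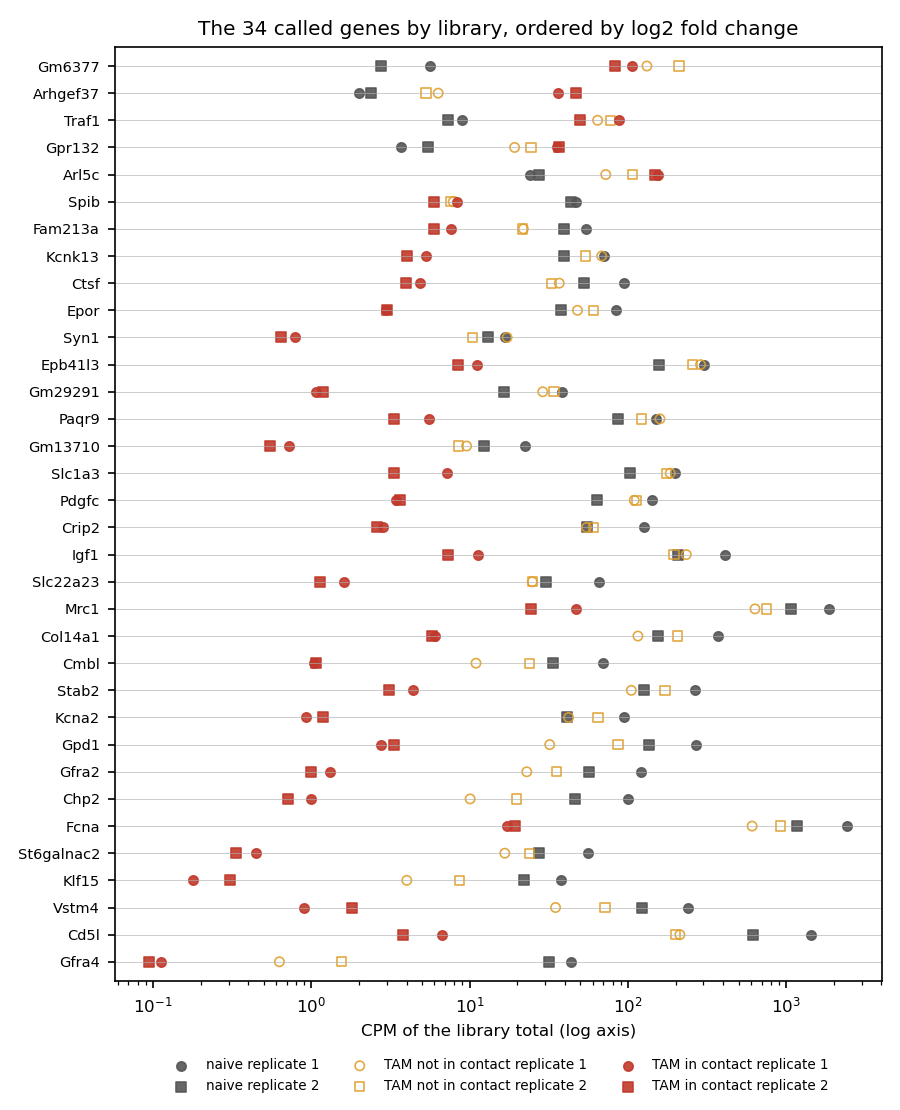
CPM of the 34 called genes (log axis) in TAM in contact (red), TAM not in contact (open) and naive macrophages (grey), with circles for replicate 1 and squares for replicate 2. In every row the red and grey symbols are separated, and in 28 of the 29 genes that fell both open symbols lie above both red ones (20.9% of all described genes, with the 29 chosen for low red values).

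Iron handling showed the same side in most genes without a call. Of 21 genes listed for iron and heme recycling 21 were described, 0 were called, and in the 4-library fit 8 were lower and 1 higher (median -1.46, with a range of -1.56 to -1.33 when 1 of the 4 libraries was left out). Slc40a1, ferroportin, the exporter of iron, stood at 312 and 196 CPM against 8043 and 3632 (-4.37 ± 0.62, adjusted p = 0.0764, 0.0265 in the 4-library fit). Hmox1, the heme oxygenase, stood at 147 and 162 CPM against 3880 and 1236 (-3.90 ± 0.73, adjusted p = 0.121, 0.0402 in the 4-library fit). Cd163, the receptor of hemoglobin bound to haptoglobin, stood at 8.47 and 7.14 CPM against 1256 and 568 (-6.71 ± 1.07, adjusted p = 0.0908, 0.0171 in the 4-library fit). Each of the 3 was below the naive libraries in both tumour libraries, as were 34.9% of all described genes, and Cd163 differed most. Blvrb, a biliverdin reductase, stood at 26.7 and 26.4 CPM against 221 and 116 (-2.51 ± 0.37, adjusted p = 0.0825, 0.0313 in the 4-library fit). Spic, the factor that drives red pulp and marrow iron-recycling macrophages, stood at 102 and 39.7 CPM against 826 and 340 (-2.90 ± 0.63, adjusted p = 0.161). Erythroid markers also had a negative median. Of 20 listed 16 were described, all had negative values and Epor fell (median -1.90, -2.83 without TAM in contact replicate 1 and -1.37 without replicate 2), the list summed to 240 and 118 CPM against 630 and 472, no member was at 0 in all 4 libraries, and their part in the iron result was not tested.

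In the list of scavenger and lectin receptors 23 of 28 genes were described, 4 fell (Cd5l, Fcna, Stab2 and Mrc1), and the 4-library fit had 7 lower and 4 higher (median -0.51, and -0.18 without naive replicate 2). Marco, a scavenger receptor of marginal zone macrophages, had no count in TAM in contact against 8.32 and 7.65 CPM in naive macrophages, which is at least 115-fold lower when the group mean is set at 3 counts per library (adjusted p = 0.0785, 0.0182 in the 4-library fit). Cd209f, a C-type lectin, stood at 0.360 and 0.190 CPM against 189 and 78.8 (-8.76 ± 1.51, adjusted p = 0.104, 0.0171 in the 4-library fit). In the other direction, Cd209a, a lectin of monocyte-derived dendritic cells, stood at 40.1 and 39.8 CPM against 5.03 and 7.68 (2.81 ± 0.55, adjusted p = 0.132, 0.0189 in the 4-library fit), and Clec7a, the beta-glucan receptor dectin-1, at 443 and 444 against 172 and 135 (1.69 ± 0.39, adjusted p = 0.179, 0.0336 in the 4-library fit). Cd209f and Cd209a, of the same gene family, lay on opposite sides. Cd209f met the CPM limit through the naive group alone, which fixed its side.

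In the efferocytosis list, which holds genes for taking up dying cells, 21 of 23 members were described, Stab2 fell, and 4 were lower in the 4-library fit (median -0.58). Without 1 of the 4 libraries that median lay between -1.22 (without TAM in contact replicate 1) and -0.67 (without naive replicate 1). Mertk, a receptor kinase of this uptake, stood at 42.7 and 15.6 CPM against 682 and 340 (-3.99 ± 0.62, adjusted p = 0.0881, 0.0371 in the 4-library fit), and its bridging ligand Gas6 at 8.56 and 7.07 against 87.7 and 46.8 (-2.95 ± 0.60, adjusted p = 0.141, 0.0258 in the 4-library fit). For complement 18 of 24 were described, Fcna fell, and 4 were lower in the 4-library fit (median -1.14, and -0.59 without TAM in contact replicate 2). Cfp, properdin, which stabilises the complement convertase, stood at 279 and 147 CPM against 2405 and 1343 (-2.99 ± 0.54, adjusted p = 0.115, 0.0382 in the 4-library fit). C1qa, a chain of the first component, stood at 459 and 61.6 CPM against 1786 and 839 (-2.20 ± 1.01, adjusted p = 0.377). Both tumour libraries lay below the naive ones for C1qa, and they lay far from each other.

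Genes of the tumour necrosis factor (TNF) and NF-kB response lay mostly higher. All 27 listed were described, Traf1 rose, 8 were higher and 0 lower in the 4-library fit, and 25 had a positive log2 fold change (median 1.29, with a range of 1.18 to 1.48 when 1 library was left out). Their summed level was 3785 and 3796 CPM in TAM in contact against 1894 to 2150 in naive macrophages. Bcl2a1d, a survival gene of the BCL2 family, stood at 16.5 and 17.1 CPM against 0.832 and 0.900 (4.43 ± 0.61, adjusted p = 0.0721, 0.0171 in the 4-library fit). It has near-identical copies (Bcl2a1a, Bcl2a1b), so the split of reads among them is uncertain. Gch1, which starts the synthesis of tetrahydrobiopterin, stood at 49.1 and 59.0 CPM against 12.9 and 13.6 (2.19 ± 0.29, adjusted p = 0.0721, 0.0199 in the 4-library fit). The NF-kB subunit gene Rel stood at 87.5 and 75.4 CPM against 26.7 and 22.4 (1.89 ± 0.46, adjusted p = 0.188, 0.0224 in the 4-library fit). In these genes the 2 tumour libraries agreed closely. They did not overlap with naive macrophages, and the groups did not overlap in 61.3% of all described genes. Bcl2a1d met the CPM limit through TAM in contact alone, which fixed its direction.

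The cytokine genes of the study's title were not called. Tnf stood at 27.0 and 66.4 CPM against 15.6 and 17.2 (1.68 ± 1.37, adjusted p = 0.589, 0.103 in the 4-library fit). In TAM not in contact, whose spread enters the first of these p-values, Tnf stood at 23.7 and 909 CPM. Il6, at 2.34 and 0.498 CPM against 0.832 and 1.66 (0.33 ± 1.27, adjusted p = 0.922), was under the limit of 5 CPM in all 4 libraries and is not among the genes described. The groups overlapped for Il6 and not for Tnf. In the list of the interleukin 6 and STAT3 pathway 17 of 22 were described, with 3 higher in the 4-library fit (median 0.99, and 0.57 without TAM in contact replicate 2). Socs3, the feedback inhibitor of STAT3 signalling, stood at 162 and 567 CPM against 12.5 and 15.3 (4.89 ± 0.77, adjusted p = 0.0902, 0.0313 in the 4-library fit). Stat3 itself stood at 648 and 712 CPM against 300 and 348 (1.23 ± 0.32, adjusted p = 0.21). Il10ra, a chain of the interleukin 10 receptor, stood at 814 and 1025 CPM against 312 and 161 (2.12 ± 0.51, adjusted p = 0.184).

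Other cytokine genes went both ways, with a median of 0.10 over the 14 of 24 that were described. Il1b stood at 331 and 420 CPM against 40.7 and 51.7 (3.18 ± 0.78, adjusted p = 0.191, 0.0171 in the 4-library fit). Il1a, the other interleukin 1 gene, stood at 3.55 and 2.16 CPM against 47.5 and 21 (-3.44 ± 1.16, adjusted p = 0.287, 0.0334 in the 4-library fit). Il18 stood at 23.2 and 9.90 CPM against 116 and 61.2 (-2.28 ± 0.49, adjusted p = 0.158). The groups did not overlap for any of the 3, as in 61.3% of all described genes. Il1b and Il1a lay on opposite sides, and Il1a met the CPM limit through the naive group alone, which fixed its side.

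Chemokine genes, which attract leukocytes, were described for 12 of 25 listed, with 3 higher in the 4-library fit and a median of 2.27 (2.02 to 2.49 when 1 library was left out). Their sum was 1568 to 2162 CPM in TAM in contact against 506 to 541 in naive macrophages. Ccl4 stood at 107 and 55.8 CPM against 8.32 and 5.30 (3.72 ± 0.61, adjusted p = 0.0977, 0.0229 in the 4-library fit). Ccl3 stood at 67.4 and 253 CPM against 9.62 and 14.6 (3.90 ± 0.77, adjusted p = 0.135, 0.0498 in the 4-library fit). Ccl9 stood at 239 and 383 CPM against 51 and 72.6 (2.50 ± 0.55, adjusted p = 0.164, 0.0303 in the 4-library fit). Each of the 3 was higher in both tumour libraries, as were 26.4% of all described genes. Among chemokine receptors Ccr3, the eotaxin receptor of eosinophils, stood at 14.4 and 21.7 CPM against 1083 and 453 (-5.25 ± 0.76, adjusted p = 0.0798, 0.0222 in the 4-library fit), and S1pr5, a sphingosine phosphate receptor of patrolling monocytes and NK cells listed with them, at 71.5 and 764 against 7.25 and 8.83 (5.88 ± 1.21, adjusted p = 0.147). Of the 14 described receptors 2 were higher and 2 lower in the 4-library fit.

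Monocyte markers lay higher alongside these genes. Of 18 listed 16 were described, 14 with a positive value and 4 higher in the 4-library fit (median 1.99, and 1.22 without TAM in contact replicate 2), and the list summed to 10185 and 11824 CPM in TAM in contact against 4930 and 7766 in naive macrophages. Ccr2, the receptor by which monocytes leave the marrow, stood at 925 and 618 CPM against 79.7 and 110 (3.18 ± 0.68, adjusted p = 0.156, 0.0192 in the 4-library fit). Ace, a gene of patrolling monocytes, stood at 317 and 1047 CPM against 16.9 and 15.6 (5.57 ± 0.82, adjusted p = 0.0818, 0.0256 in the 4-library fit). Cd300e, another, stood at 611 and 715 CPM against 20.4 and 24.2 (5.05 ± 1.46, adjusted p = 0.233, 0.0168 in the 4-library fit). Ly6c2, of classical monocytes, stood at 494 and 192 CPM against 188 and 356 and overlapped. No marker of the list was at 0 in all 4 libraries, and the part of monocyte RNA in the values of TNF, chemokine and resident macrophage genes was not tested.

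**Figure D3:**
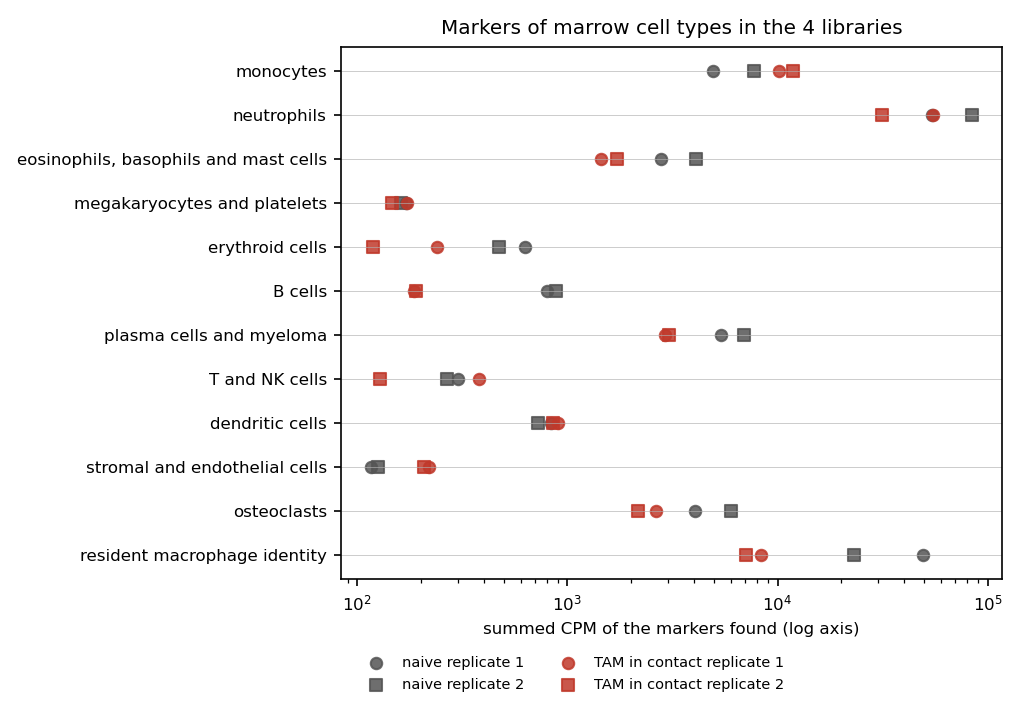
Summed CPM (log axis) of all listed markers found for each marrow cell type, and of the resident macrophage list, in TAM in contact (red) and naive macrophages (grey), with circles for replicate 1 and squares for replicate 2. Resident macrophage, B cell, erythroid and plasma cell sums are lower in both red libraries, as are osteoclast sums and those of eosinophils, basophils and mast cells. Monocyte and stromal sums are higher in both red libraries, and dendritic cell sums are slightly higher.

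Markers of the other marrow cells were measured in the same way. For B cells 13 of 18 markers were described, all with negative values (median -2.74), 12 of them lower in the 4-library fit, and the sums were 186 and 190 CPM against 804 and 882. Ms4a1, which encodes CD20, stood at 8.36 and 5.17 CPM against 62.4 and 92.7 (-3.37 ± 0.56, adjusted p = 0.1, 0.0183 in the 4-library fit). For plasma cells and myeloma 21 of 24 were described, 6 lower in the 4-library fit (median -1.53), with sums of 2928 to 3040 CPM against 5399 to 6925, so the sum was lower in the GFP+ cells than in naive macrophages. Jchain, which joins secreted antibodies, stood at 23.5 and 54.6 CPM against 335 and 450 (adjusted p = 0.372, 0.0352 in the 4-library fit). Immunoglobulin genes took 0.166% and 0.196% of counts in the tumour group against 0.466% and 0.632% in the naive group. With them removed the plasma cell median was -0.26 and edgeR called 20 of the 34 genes.

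Neutrophil markers were described for 18 of 19 and all had negative values (median -0.71), yet their sums of 31567 to 54973 CPM against 54090 to 84235 show that granule protein transcripts were abundant in every library. Markers of eosinophils, basophils and mast cells summed to 1442 to 1729 CPM against 2778 to 4116 (median -0.89 over 17 of 19). T and NK cell markers, of which 9 of 22 were described, had a median of 0.97 that was 0.17 without TAM in contact replicate 1. Dendritic cell markers had a median of 0.23 over 11 of 17, and megakaryocyte markers -0.01 over 8 of 16. Stromal and endothelial markers were described for 4 of 21 (median 1.35) and summed to 218 and 208 CPM against 117 and 125. Osteoclast markers were described for 9 of 14 (median 0.39, and 0.08 without TAM in contact replicate 1), while their sum was lower, at 2638 and 2164 CPM against 4056 and 6012. Calcr of the osteoclast list was at 0 in all 4 libraries.

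Antigen presentation and interferon genes differed between the replicates of TAM in contact. The median of the interferon-stimulated genes, all 32 of which were described, was 1.16, with 31 positive, 0 called and 1 higher in the 4-library fit, and it was -0.14 without TAM in contact replicate 1. In 29 of the 32 that library was at least 2-fold above replicate 2, which compares with 657 of all 9998 genes, and the naive replicates differed by 2-fold in 0 of the 32. Isg15, a ubiquitin-like protein induced by interferon, stood at 127 and 13 CPM against 16.4 and 14.6. Ifit2 stood at 759 and 60.2 CPM against 94.1 and 64.1. For both, replicate 1 was far above the naive libraries and replicate 2 below the lower of them. Zbp1, a sensor of nucleic acid, was higher in both, at 220 and 95.2 CPM against 27.8 and 25 (2.72 ± 0.52, adjusted p = 0.129, 0.0365 in the 4-library fit).

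MHC class II genes showed a similar gap at a higher level, with 16 of 18 described, 0 called and a median of 1.26 (0.68 without TAM in contact replicate 1). H2-Ab1, the beta chain, stood at 5025 and 1431 CPM against 981 and 581 (2.19 ± 0.99, adjusted p = 0.374). Cd74 stood at 14316 and 4239 CPM against 3348 and 2064 (1.92 ± 0.92, adjusted p = 0.394). MHC class I presentation, of which 19 of 20 were described, was closer between replicates, with 4 higher in the 4-library fit and a median of 0.97. H2-D1 stood at 5808 and 7518 CPM against 3783 and 3431, and the immunoproteasome gene Psmb8 at 330 and 262 against 136 and 133 (1.29 ± 0.39, adjusted p = 0.251, 0.0454 in the 4-library fit). H2-Q6 (2.15 ± 0.38, adjusted p = 0.0172 in the 4-library fit) and H2-Q7 (2.01 ± 0.34, adjusted p = 0.0199 in that fit) had larger values, which are uncertain because the copies are nearly identical.

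**Figure D4:**
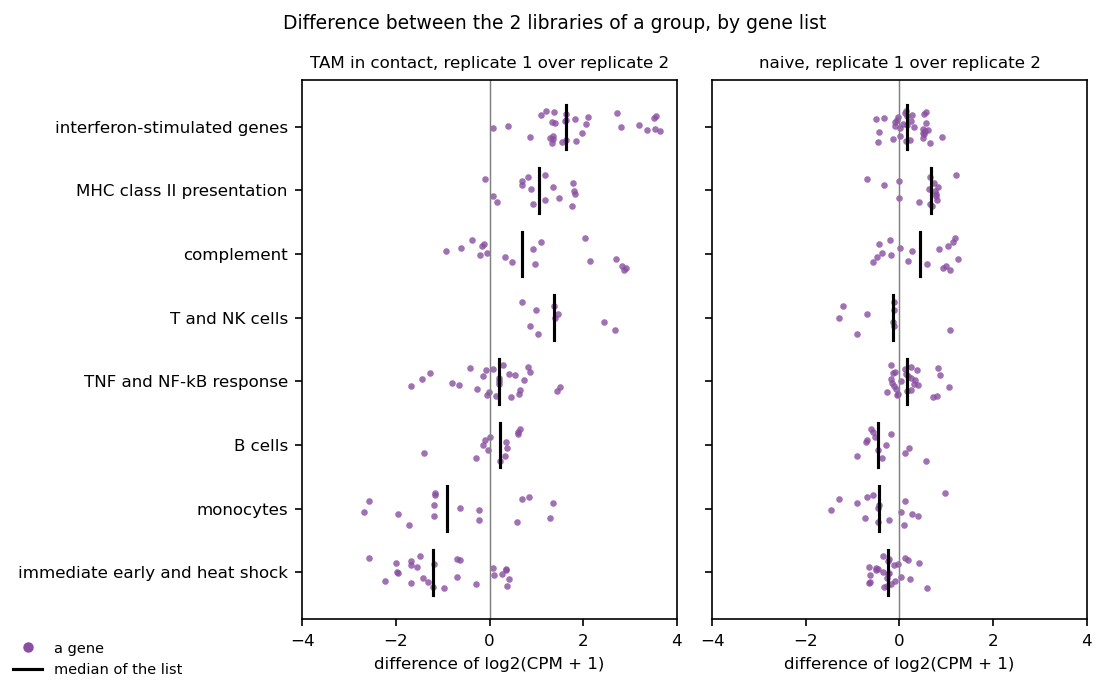
Difference of log2(CPM + 1) between replicate 1 and replicate 2 for the described genes (points) of 8 lists, in TAM in contact (left) and naive macrophages (right), with black lines at the median. Interferon-stimulated genes lie to the right in TAM in contact, immediate early and heat shock genes to the left, and both lie near 0 in naive macrophages.

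Immediate early and heat shock genes, which cells switch on within minutes of a stimulus, had a median of 2.05 over the 26 of 30 described (1.36 without TAM in contact replicate 2), with 8 higher in the 4-library fit and 0 called. Here replicate 2 of TAM in contact was at least 2-fold above replicate 1 in 14 of the 26, against 313 of all 9998 described genes. Fos stood at 886 and 2387 CPM against 50.6 and 61.4 (5.04 ± 0.98, adjusted p = 0.132, 0.0246 in the 4-library fit). Egr1 stood at 217 and 1021 CPM against 19.4 and 20.8 (5.12 ± 1.60, adjusted p = 0.259, 0.0405 in the 4-library fit), and Dusp1, a phosphatase of MAP kinases, at 822 and 2651 against 95.1 and 151 (3.997 ± 1.01, adjusted p = 0.203, 0.0454 in the 4-library fit). Both tumour libraries were above the naive ones in each of the 3, as in 26.4% of all described genes. Junb of the interleukin 6 list (adjusted p = 0.047 in the 4-library fit) and Nr4a1 of the monocyte list are members here too, and the part of these genes in the medians of those lists was not tested.

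Among macrophage transcription factors 32 of 35 were described and Klf15 fell (median 0.77). Cebpb, a factor of monocytes and inflammation, stood at 757 and 2775 CPM against 158 and 169 (3.61 ± 0.76, adjusted p = 0.152). Irf5, which drives inflammatory genes, stood at 514 and 858 CPM against 272 and 196 (1.72 ± 0.42, adjusted p = 0.191). The groups did not overlap for either gene, as in 61.3% of all described genes.

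Surface receptors of immune regulation were split. Of 21 checkpoint and costimulation genes 16 were described, with 3 higher and 1 lower in the 4-library fit (median -0.11). Cd274, which encodes the ligand PD-L1, stood at 189 and 251 CPM against 34.4 and 26.4 (3.02 ± 0.63, adjusted p = 0.149, 0.0183 in the 4-library fit), and Pdcd1lg2, of the ligand PD-L2, at 16.4 and 15.5 against 1.07 and 0.588 (4.41 ± 1.26, adjusted p = 0.23, 0.0183 in the 4-library fit). Havcr2, of the receptor TIM-3, stood at 87.0 and 88.7 CPM against 32.2 and 20.04 (1.91 ± 0.44, adjusted p = 0.175, 0.0377 in the 4-library fit). Cd86, a costimulatory ligand, stood at 107 and 46.5 CPM against 348 and 199 (-1.69 ± 0.52, adjusted p = 0.252). Fc receptors, of which 10 of 11 were described, had a median of -0.09 with Fcgr4, an activating receptor for IgG, at 602 and 663 CPM against 70.8 and 59.4 (3.44 ± 1.16, adjusted p = 0.287, 0.0171 in the 4-library fit) and Fcgrt, the neonatal Fc receptor, at 156 and 334 against 939 and 496 (-1.38 ± 0.59, adjusted p = 0.357). Toll-like receptors and adaptors had a median of 0.36 over 21 of 23, with 0 genes past the test in either fit. Of 20 genes of alternative activation 13 were described and Mrc1 fell (median -0.27), while several listed genes were under the CPM limit.

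Adhesion and matrix genes also went both ways. Of 27 integrins and adhesion genes 25 were described, 0 called, and Itga4, which pairs in the receptor of VCAM1, stood at 184 and 296 CPM against 43.2 and 42.5 (2.65 ± 0.43, adjusted p = 0.0927, 0.0244 in the 4-library fit), opposite in sign to Vcam1. Itgad stood at 65.2 and 11.5 CPM against 797 and 431 (-3.87 ± 0.85, adjusted p = 0.163). In the matrix list 19 of 30 were described and Col14a1 fell (median -0.22). Fn1, fibronectin, stood at 207 and 320 CPM against 36.1 and 50.4 (2.77 ± 0.48, adjusted p = 0.109, 0.0246 in the 4-library fit), and Mmp9, a gelatinase of neutrophils and osteoclasts, at 1446 and 1336 against 3076 and 5205 (-1.42 ± 0.86, adjusted p = 0.48).

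Lysosomal and lipid genes had small medians with a few large members. For lysosome genes, 30 of 32 described, the median was -0.25 with 0 called. Ctsd, a major acid protease, stood at 1254 and 916 CPM against 10336 and 5797 (-2.74 ± 0.59, adjusted p = 0.156, 0.0405 in the 4-library fit), while Ctss, a protease of antigen processing, stood at 2665 and 2538 against 1195 and 696 (1.62 ± 0.67, adjusted p = 0.347). Lipid handling had a median of 0.07 over 26 of 30. Lpl, the lipoprotein lipase, stood at 181 and 76.7 CPM against 1393 and 784 (-2.94 ± 0.55, adjusted p = 0.121, 0.0481 in the 4-library fit). Of the prostaglandin and leukotriene list 19 of 28 were described (median -0.28), with the thromboxane synthase gene Tbxas1 at 63.7 and 39.3 CPM against 445 and 215 (-2.53 ± 0.45, adjusted p = 0.112, 0.0471 in the 4-library fit).

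No gene of the energy metabolism and proliferation lists was called. The 24 of 25 described genes of glycolysis and hypoxia had a median of 0.11 and a range of -1.02 to 0.99, with 0 past the test in either fit. Nuclear genes of the respiratory chain, all 29 described, had a median of 0.41 with 26 positive, and the 7 of 13 described transcripts of the mitochondrial genome a median of -0.54, again with 0 past the test in either fit. For the unfolded protein response 24 of 26 were described (median 0.20), with Nupr1 and the sensor gene Atf6 higher in the 4-library fit. Atf6 stood at 184 and 148 CPM against 61.5 and 52.6 (1.70 ± 0.28, adjusted p = 0.0977, 0.0272 in the 4-library fit). Ribosome biogenesis and MYC target genes had a median of -0.23 over 24 and the cell cycle genes -0.23 over 30, and Mki67, a marker of dividing cells, stood at 73.0 and 52.5 CPM against 86.0 and 121. The cell cycle median was 0.03 without TAM in contact replicate 2 and 0.07 without naive replicate 2. The medians of the lists for Fc receptors, inflammatory cytokines, chemokine receptors, checkpoint genes, alternative activation, lysosome, lipid handling, prostaglandins, glycolysis, megakaryocytes and dendritic cells also changed sign when 1 of the 4 libraries was left out.

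**Figure D5:**
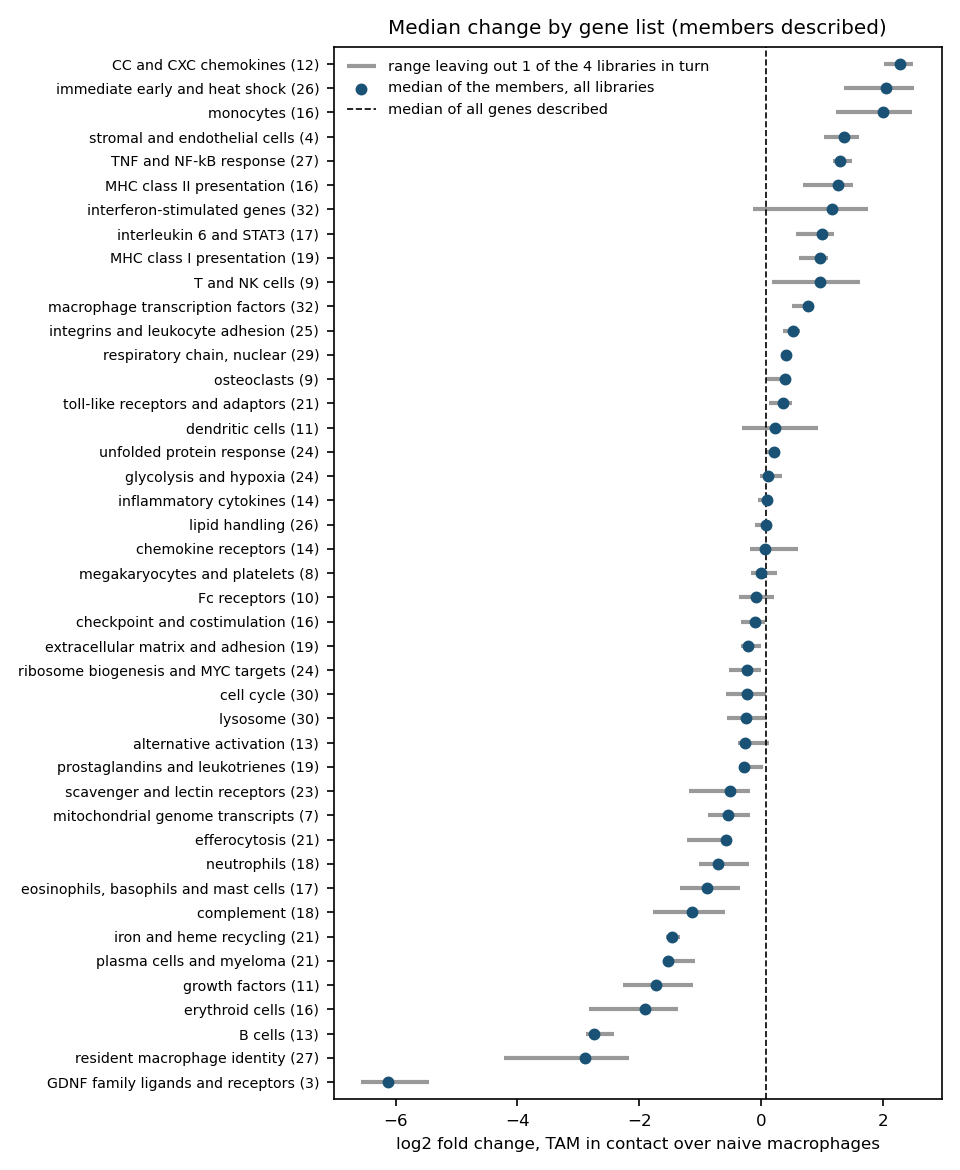
Median log2 fold change of TAM in contact over naive macrophages for the described members of the lists shown (points, number of members in brackets), with grey bars for the range when 1 of the 4 libraries is left out and a dashed line at the median of all described genes, 0.08. Chemokines stand at 2.27 and resident macrophage identity at -2.90, and the bar of interferon-stimulated genes crosses 0.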

How the data were processed

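RNA of sorted bone marrow macrophages was made into libraries with a SMART-Seq v4 low-input kit, which does not mark strand, per the labels' protocols. The deposited values are raw counts per gene, and the submitters' processing notes name mm10 and GRCm38 beside the tools STAR, featureCounts and DESeq2 (1.26). The annotation and strand setting used for counting were not given in the sources used here. Gene positions came from a GRCm38 annotation that matched 47224 of the 47643 identifiers. Reads of overlapping genes and near-identical copies may be split or shared.

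Counts of the 6 macrophage libraries were fitted with edgeR 4.0.16 in R 4.3.3 (TMM factors, filterByExpr with a minimum count of 10 and a minimum total of 15, quasi-likelihood test), with the difference TAM in contact minus naive macrophages and Benjamini-Hochberg adjustment over the 15522 genes tested. The biological coefficient of variation was 49.9% with 3 residual degrees of freedom. The SE given after ± is worked back from the test, as the absolute log2 fold change divided by the square root of its F statistic. A second fit used the 4 libraries compared, and DESeq2 1.42.0, limma-voom (limma 3.58.1), other scaling and filters and single libraries left out were alternatives. List medians, sums and non-overlap are descriptions with no test, and no count of a list supports more than its own numbers.

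The members and the 44 lists (906 genes, 11 of them marker lists) were chosen with earlier results of these data known. Genes were named by rule: in each direction the called genes of largest fold change (15 at most, filled to 8 by smallest p), in each list its 4 members of smallest p at most, the genes of the sort and title, the 5 genes highest in each group and the genes next to the CPM limit. Outside this rule, and chosen after their values were seen, were the other called genes, Axl, C1qa, Cd209f, Cd300e, Clec7a, Egr1, H2-Ab1, Hmox1, Ifit2, Irf5, Isg15, Jchain, Ly6c2, Marco, Mki67, Nr4a1, Pdcd1lg2, Rel, Ret and Stat3, and Ly6i, Flt1, Erbb2 and Dmpk of the closing section. Some results are not reported here.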

Additional observations from a re-analysis of the deposited data

How the results depend on the processing

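The number of called genes depended on the method, and the cause was not tested. Against 34 calls in the 6-library edgeR fit, all among the genes described, DESeq2 called 1217 (942 of them described), edgeR without the filter on low counts 1437 (1099), edgeR on the 4 libraries alone 664 (516), the bias-adjusted quasi-dispersion 56 (55), only described genes 77, RLE size factors 22 and the fit without immunoglobulin genes 20. limma-voom called 0, with 1739 described genes at an unadjusted p under 0.05. Of the described calls 85.3% were lower in TAM in contact in the 6-library fit, 58.5% by DESeq2, 53.5% without the filter, 61.0% in the 4 libraries and 75.3% among described genes only. Leaving out 1 library gave 0 to 534 calls (0 to 424 described): 0 without either library of TAM in contact or of naive macrophages, which leaves 1 library in a group that is assumed to vary like the others, and 534 or 481 without replicate 1 or 2 of TAM not in contact. With the replicate number as a block 57 genes were called, 28 of the 34 among them, but the number pairs no tumour library with a naive one: the deviations of TAM in contact and naive replicate 1 had a correlation of 0.039. TAM in contact and not in contact share a mouse by the labels, though Y-linked genes and Xist put that in doubt for mouse 2. The deviations of replicate 1 in these 2 groups had a correlation of 0.152. A limit of 1 CPM would have described 12246 genes and one of 10 CPM 8784.

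Of 133 genes named and tested 12 changed sign under at least 1 alternative, none of them called. When 1 of the 6 libraries was left out in turn, their log2 fold changes ran from -0.93 to 0.04 for Adgre1, -0.07 to 0.33 for Alyref2, -0.51 to 0.53 for Cd68, -5.81 to 9.02 for Ddx3y, -0.20 to 3.37 for Ifit2, -1.11 to 1.04 for Il6, -0.06 to 3.15 for Isg15, -0.39 to 0.03 for Itgam, -0.31 to 1.01 for Ly6c2, -0.63 to 1.10 for Mapkbp1, -0.64 to 0.21 for Ngp and -0.09 to 0.27 for Zfp874b. limma-voom gave 0.02 for Cd68 and 0.10 for Mapkbp1, and the replicate block gave 0.08 and 0.11. Ifit2 and Isg15 changed sign without TAM in contact replicate 1, at -0.20 and -0.06. With 2 libraries a group, differences below the gap between replicates were not detectable.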

Other observations

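The gene families and single genes below were chosen after their values were seen. The 3 described genes of the Sirpb1 family, activating relatives of the receptor SIRP-alpha, had a summed level of 296 and 309 CPM against 21 and 26.8 in naive macrophages, with a median log2 fold change of 4.10. Ly6i, of the Ly6 family of small surface proteins, stood at 210 and 97.8 CPM against 1.22 and 0.796 (7.38 ± 1.19, edgeR adjusted p = 0.0927, 0.0171 in the 4-library fit). Flt1, a receptor of vascular endothelial growth factors, stood at 17.3 and 23 CPM against 1.09 and 1.94 (3.90 ± 0.54, edgeR adjusted p = 0.0721, 0.0205 in the 4-library fit). None of these genes was called in the 6-library fit, and both tumour libraries of each lay above both naive ones. Ly6i and Flt1 met the CPM limit through TAM in contact alone, which fixes that order for them.

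On the lower side, Erbb2, a receptor kinase of the EGF receptor family, stood at 0.337 and 0.997 CPM against 67.9 and 31.7 (-6.05 ± 0.81, edgeR adjusted p = 0.0721, 0.0238 in the 4-library fit). Dmpk, a protein kinase best known from muscle, stood at 1.12 and 0.665 CPM against 320 and 139 (-7.85 ± 1.36, edgeR adjusted p = 0.106, 0.0171 in the 4-library fit). Erbb2 and Dmpk met the CPM limit through the naive group alone, which fixes their direction. Variable segments of antibody light chains, 28 of the Igkv family, summed to 80.4 and 126 CPM against 368 and 440 (median log2 fold change -5.35), and 25 of the 28 were described through the naive group alone, which fixes their direction. The 10 described Ighv segments summed to 10.3 and 28.4 CPM against 83.4 and 101, and 8 of the 10 were described through the naive group alone.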
